A study of Rattus norvegicus with 6 samples.

Results

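The genes Hmox1, Gstp1, Nqo1, Gclc, Gclm, Gsr, Txnrd1, Srxn1, Slc7a11 and Nfe2l2, 10 members of the NRF2 response and of glutathione metabolism, were described in neurons isolated from rat dorsal root ganglia (DRGs) at the L1-L2 levels. They were taken by gene name from a table of raw counts for 25689 genes, in which 9 of the 10 members had a row. Srxn1 was not analysed here. All 9 passed the filter on low counts, as did 14919 genes in all. The list was selected on the levels of Hmox1 and Gstp1, which were lower after perirenal adipose tissue ablation (PRATA), so the values of these genes are given as a description without a test. The 7 other members in the table did not enter that choice by their own values and were tested.

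All 6 samples came from Spontaneously Hypertensive Rats (SHRs) labelled as wild type and as 6 to 8 weeks old, while the methods of the study give an older age at purchase. The 3 PRATA samples were collected 4 weeks after the fat around both kidneys had been ablated, and the 3 sham samples after a sham operation. Collagenase and then trypsin were used to dissociate the ganglia, and the neurons were flushed from the dish after 5 h in culture, a step that rests on a difference in adhesion between neurons and glial cells. Glial markers were present in every library, as given further on. RNA was therefore taken after digestion and plating in both groups. The labels do not state that the samples came from separate animals, so p-values measure only the spread between these samples. Sex and any pooling of animals were not given in the sources used here.

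NRF2, encoded by Nfe2l2, is a transcription factor that KEAP1 holds in the cytoplasm and delivers for degradation. Oxidants and electrophiles modify KEAP1, NRF2 then accumulates, pairs with a small MAF protein and binds antioxidant response elements near genes for glutathione synthesis, thioredoxin reduction, quinone reduction and haem breakdown. Peripheral neurons carry long axons with many mitochondria, and satellite glia around their cell bodies supply part of the antioxidant capacity of the ganglion.

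Total counts ranged from 5892967 to 15226952 per sample, and 3 counts, taken as the floor of detection, corresponded to 0.207 to 0.468 CPM (counts scaled to the depth of the library). Levels are CPM after TMM normalization, a scaling by the bulk of the genes. The reads carry no molecular identifiers and are not independent molecules, so a floor accounts for counting error alone. PRATA replicate 3 and sham replicate 1 stood apart from the other libraries by Rn7sl1, an RNA of the signal recognition particle, which took 5.4% and 5.63% of their counts and 1.25% to 1.52% in the other 4 samples. In edgeR's quasi-likelihood test, 0 of 14919 genes reached an adjusted p under 0.05, the smallest adjusted p being 0.156, beside 2734 genes at an unadjusted p under 0.05. At the adjusted threshold DESeq2 called 510 genes lower and 234 higher, limma voom with sample weights 726 lower and 447 higher, and limma-trend 0. Without sham replicate 2, the sample of lowest depth, edgeR called 559 lower and 162 higher.

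Hmox1 and Gstp1, which chose the list by being lower, had lower levels in every PRATA sample than in any sham sample. Of the 7 other measured members, Nqo1, Gclc, Txnrd1 and Slc7a11 also did. Gclm, Gsr and Nfe2l2 lay below sham on average, with groups that overlapped. Among the 7 members that did not choose the list, the median log2 fold change was -0.92, against 0.02 over all genes tested, and 7 of 7 were below 0, as were 48% of all genes. Of these 7, 4 had groups that did not overlap, lower after PRATA, against 11.2% of all genes. The same 4 had an unadjusted p under 0.05, against 10.1% of all genes, and 3 of them also had a log2 fold change under -1, against 3.23%. In the opposite direction 0 of 7 passed the unadjusted p, alone or with the fold threshold, against 8.19% and 1.17% of all genes. Higher groups without overlap were found in 0 of 7, against 11.6% of all genes. Both thresholds together were passed by 4.4% of all genes in either direction. By edgeR's adjusted p 0 of 7 were called. By DESeq2 and by voom 4 of 7 were called, and by limma-trend 0. Of the 14919 genes, DESeq2 called 510 lower and voom 726.

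**Figure D1:**
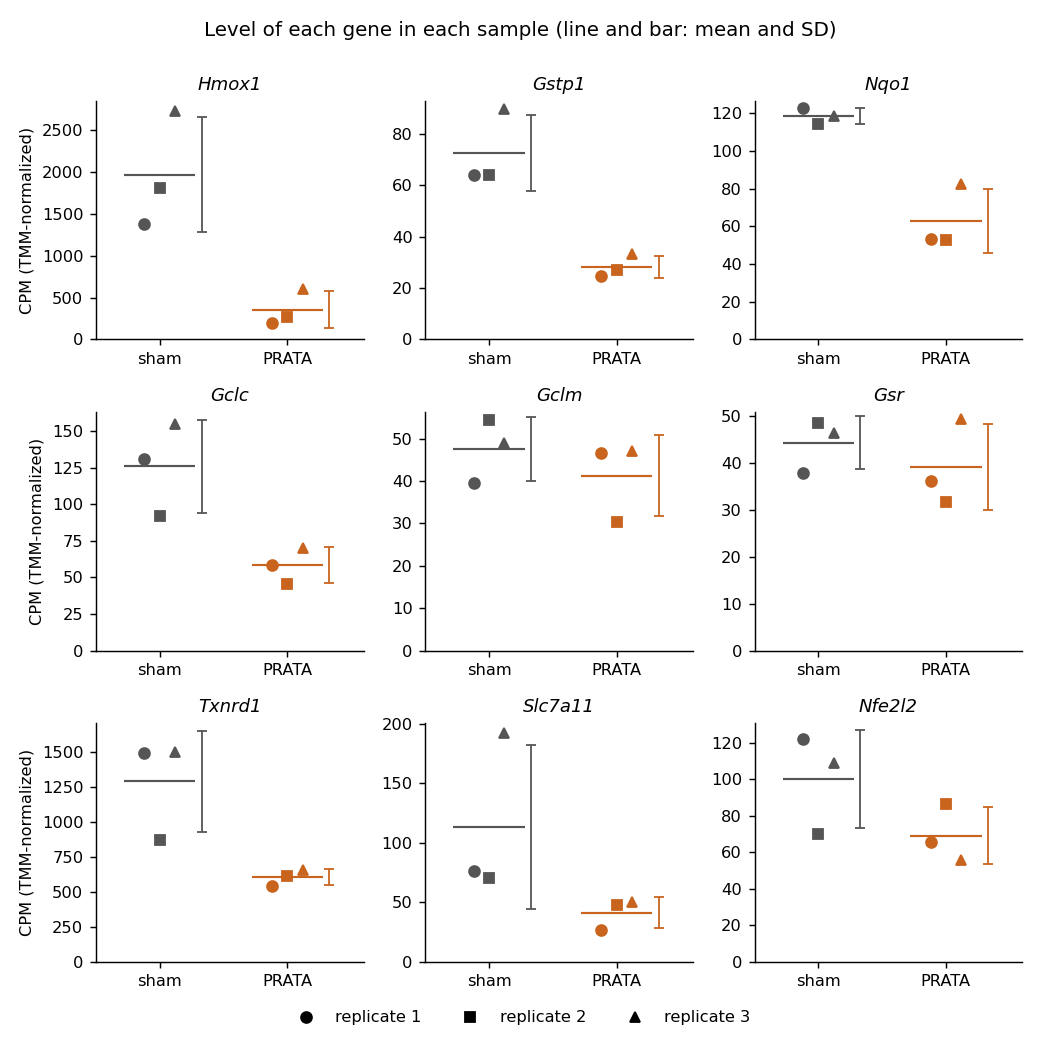
Levels of the 9 measured members in each sample, in TMM-normalized CPM on a linear axis from 0, with one point per sample shaped by replicate number, a line at the group mean and a bar for the SD (n = 3). Hmox1, Gstp1, Nqo1, Gclc, Txnrd1 and Slc7a11 have every PRATA point below every sham point, while Gclm, Gsr and Nfe2l2 overlap.

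Hmox1 encodes haem oxygenase 1, which opens haem to biliverdin with release of iron and carbon monoxide. Its level after PRATA was 199, 268 and 606 CPM, and after sham it was 1380, 1809 and 2729 CPM, each in the order of replicates 1 to 3 kept throughout. The groups lay apart, and PRATA replicate 3 was the highest of its group. The means were 358 ± 218 CPM after PRATA and 1972 ± 689 CPM after sham (SD, n = 3), a log2 fold change of -2.46, or a level 5.51-fold higher in sham. Without PRATA replicate 3 and sham replicate 1 the log2 fold change was -3.29. The Hmox1 counts, 1538 to 28888 per sample, were far above the floor.

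Gstp1 encodes a pi class glutathione transferase, which joins glutathione to electrophiles. It stood at 24.8, 27.1 and 33.1 CPM after PRATA and at 64.0, 64.2 and 89.7 CPM after sham. The groups did not overlap, and the gap between the highest PRATA and the lowest sham sample was wider than the range within the PRATA group. The log2 fold change was -1.36, and without PRATA replicate 3 and sham replicate 1 it was -1.58. Reads of Gstp1 copies elsewhere in the genome may have been split between rows, so its level is uncertain.

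The 300 bases around the start of transcription (250 before and 50 after) were searched for the core of the antioxidant response element, TGACNNNGC on either strand, and for TGANTCA, the AP-1 site, which can overlap it. RefSeq promoters of build GRCr8 were matched for 8 of the 10 members, with 9 windows, and the entries for Hmox1 and Gsr are missing. The core was present in 4 of the 9 windows (44.4%), those of Gstp1, Gclm, Nfe2l2 and 1 of the pair of Txnrd1 starts. In all 33469 promoters the share was 12.1%. The AP-1 site was in 2 of the 9 member windows (22.2%), those of Gstp1 and Srxn1, and in 7.33% of all promoters. Among the other pathway genes listed further on the core was in 27 of 132 windows (20.5%), and it was in 2 of 12 (16.7%) for those with lower, non-overlapping groups against 24 of 110 (21.8%) for the rest. A core outside these 300 bases was not searched for, and a match is not evidence of binding. The 3 matches upstream of a start are shown because they fall on members on both sides of the result, with the core in capitals and 50 bases on each side, read along the strand of the gene. In Gstp1 (chr1:210769708-210769816, minus strand) the core lay 61 to 53 bases before this start, inside the annotated gene, which reaches further upstream, and overlapped an AP-1 site. In Gclm (chr2:213031913-213032021, plus strand) it lay on the opposite strand, 172 to 164 bases before the start and outside the gene. In Txnrd1 (chr7:22755924-22756032, minus strand) it also lay on the opposite strand, 78 to 70 bases before this start and inside the annotated gene, which has a further start upstream.
Gstp1: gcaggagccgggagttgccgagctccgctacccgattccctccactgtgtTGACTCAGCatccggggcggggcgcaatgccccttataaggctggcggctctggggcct
Gclm: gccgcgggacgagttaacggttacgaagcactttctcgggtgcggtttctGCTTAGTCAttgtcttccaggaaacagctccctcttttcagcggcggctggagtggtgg
Txnrd1: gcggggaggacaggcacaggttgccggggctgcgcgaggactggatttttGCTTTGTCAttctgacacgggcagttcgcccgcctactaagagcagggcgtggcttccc

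Glutathione is built from cysteine, glutamate and glycine. Slc7a11 encodes the light chain of the antiporter that imports cystine in exchange for glutamate. It was at 26.3, 47.3 and 49.8 CPM after PRATA and at 76.4, 70.5 and 192.5 CPM after sham. The groups did not overlap, and sham replicate 3 was well above the other sham samples. On the log2 scale the fold change was -1.46 ± 0.42 (SE, 95% interval -2.43 to -0.48, edgeR adjusted p = 0.175 with Benjamini-Hochberg adjustment), and without sham replicate 3 it was -0.83.

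Gclc encodes the catalytic subunit of glutamate-cysteine ligase, the rate-limiting enzyme of glutathione synthesis. Its level was 58.5, 45.7 and 70.4 CPM after PRATA and 131.0, 91.8 and 154.8 CPM after sham. The groups were separate, with sham replicate 2 the nearest to the PRATA samples. The log2 fold change was -1.11 ± 0.25 (SE, 95% interval -1.68 to -0.55, edgeR adjusted p = 0.156).

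Gclm encodes the modifier subunit of the same ligase, which raises the activity of the catalytic subunit. Its level was 46.5, 30.3 and 47.1 CPM after PRATA and 39.5, 54.3 and 48.9 CPM after sham. PRATA replicates 1 and 3 lay within the sham range. On the log2 scale the fold change was -0.20 ± 0.23 (SE, 95% interval -0.72 to 0.32, edgeR adjusted p = 0.662), an interval that includes both no difference and a lower level after PRATA. The difference between the fold changes of Gclc and Gclm was not tested.

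Gsr encodes glutathione reductase, which returns oxidized glutathione to its reduced form with NADPH. It stood at 36.1, 31.7 and 49.4 CPM after PRATA and at 37.9, 48.5 and 46.4 CPM after sham. The highest of all 6 samples was PRATA replicate 3, so the groups overlapped. The log2 fold change was -0.18 ± 0.21 (SE, 95% interval -0.67 to 0.31, edgeR adjusted p = 0.688).

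Txnrd1 encodes the cytosolic thioredoxin reductase, a selenoprotein that keeps thioredoxin reduced. After PRATA it was at 543, 613 and 655 CPM, and after sham at 1495, 868 and 1501 CPM. The PRATA samples were close together, and sham replicate 2 lay between them and the other sham samples. On the log2 scale the fold change was -1.09 ± 0.27 (SE, 95% interval -1.70 to -0.48, edgeR adjusted p = 0.157).

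Nqo1 encodes NAD(P)H quinone dehydrogenase 1, which reduces quinones in a single step that yields no semiquinone. It was at 53.1, 52.6 and 82.4 CPM after PRATA and at 122.8, 114.4 and 118.7 CPM after sham. The sham samples were nearly level, and PRATA replicate 3 stood above the other PRATA samples but below all sham samples. The log2 fold change was -0.92 ± 0.21 (SE, 95% interval -1.40 to -0.44, edgeR adjusted p = 0.156).

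The transcript of NRF2 itself, Nfe2l2, was at 65.7, 86.2 and 55.4 CPM after PRATA and at 121.9, 70.1 and 108.7 CPM after sham. Sham replicate 2 lay below PRATA replicate 2, so the groups overlapped. On the log2 scale the fold change was -0.54 ± 0.25 (SE, 95% interval -1.12 to 0.05, edgeR adjusted p = 0.303). The activity of NRF2 is set largely by the stability of the protein, which RNA counts do not measure. For single members, the exact two-sided permutation test has a smallest possible p of 0.1 in groups of 3. It gave that value, 0.1, for Nqo1, Gclc, Txnrd1 and Slc7a11, 0.2 for Nfe2l2 and 0.5 for Gclm and Gsr.

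Calls for the separated members turned on the tool and on single libraries. With DESeq2 the adjusted p was 0.00193 for Txnrd1, 0.00274 for Gclc, 0.0053 for Nqo1 and 0.0126 for Slc7a11, and with voom it was 0.0315 for Txnrd1 and Gclc, 0.0339 for Nqo1 and 0.0384 for Slc7a11. In edgeR without sham replicate 2 the adjusted p was 0.0291 for Txnrd1 and 0.0340 for Gclc. Without PRATA replicate 1 it was 0.550, and without sham replicate 3 0.515, for each of the 4. In the 4 samples without PRATA replicate 3 and sham replicate 1 the log2 fold changes were -1.15 for Nqo1, -1.26 for Gclc, -1.05 for Txnrd1 and -1.85 for Slc7a11, with adjusted p from edgeR of 0.129, 0.194, 0.264 and 0.208.

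The wider pathway was read from a list of 143 further genes in 9 groups by role, written from general knowledge, of which 135 had a row and 129 were tested. Their median log2 fold change was 0.04, and 58 of 129 were below 0. At an unadjusted p under 0.05, 20 (15.5%) were lower and 4 (3.1%) higher after PRATA, against 10.1% and 8.19% of all genes. Groups that did not overlap were lower in 18 (14.0%) and higher in 10 (7.75%), against 11.2% and 11.6% of all genes. In edgeR 0 of the 129 reached an adjusted p under 0.05, as by limma-trend, while DESeq2 called 9 lower, namely Gsta1, Taldo1, Gpx8, Ftl1, Osgin1, Akr1b1, Prdx6, Gstm1 and Prdx1, and voom 13 lower. Over all 14919 genes DESeq2 called 510 lower and voom 726. Each of the 9 roles held at least 1 gene lower at an unadjusted p under 0.05, as were 10.1% of all genes. With the members left out, the share ran from 6.25% of the NRF2 regulators to 33.3% of the haem and iron genes. The counts of 20 lower and 4 higher turned on single libraries, with 9 lower and 2 higher without sham replicate 3, 11 lower and 0 higher without PRATA replicate 1, 25 lower and 13 higher without sham replicate 2, and 15 lower and 1 higher without PRATA replicate 3.

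**Figure D2:**
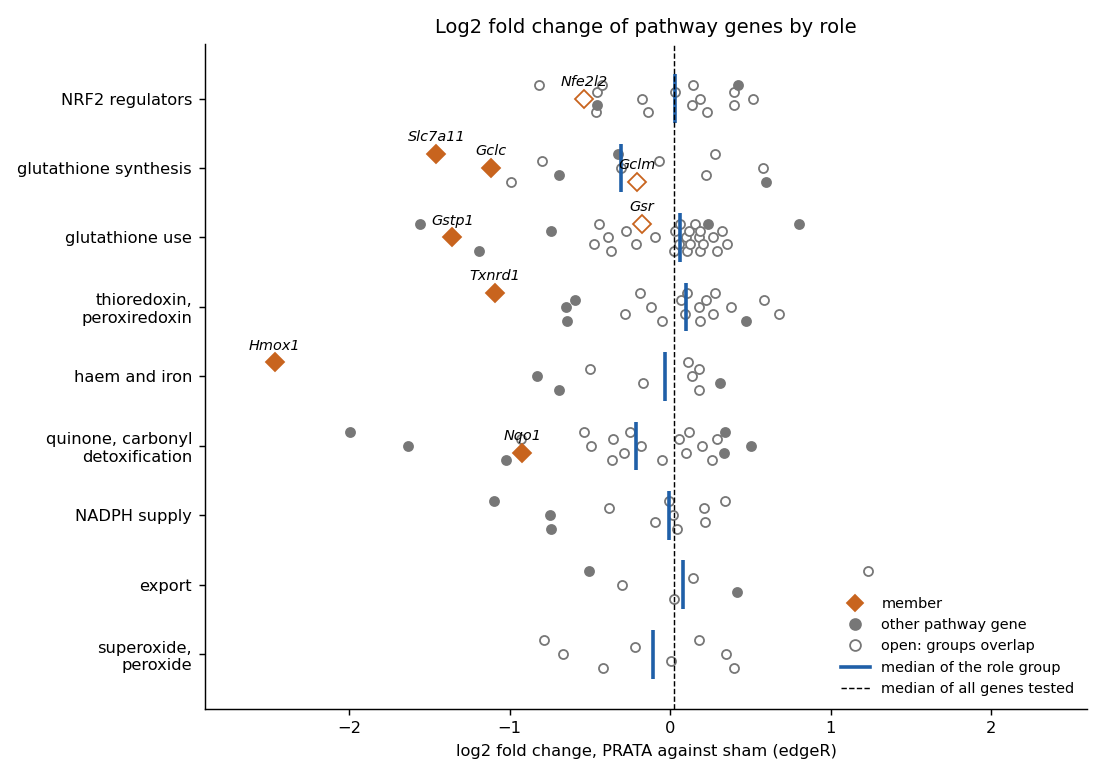
Log2 fold change of PRATA against sham (horizontal axis) for the pathway genes tested, in rows by role, with named diamonds for the members, filled symbols for genes whose groups do not overlap, a blue bar at the median of each role and a dashed line at the median of all genes. The blue bars include the members, whereas the role medians in the text leave them out. Without the members, 18 genes have lower and 10 higher non-overlapping groups, and the median of the list is 0.04.

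In glutathione synthesis and uptake of its amino acids, 10 further genes were tested, 3 of them lower and 2 higher at an unadjusted p under 0.05. These are 30% and 20% of the 10, against 10.1% and 8.19% of all genes. Slc1a4, a neutral amino acid transporter, was at 72.7, 96.9 and 95.7 CPM after PRATA and at 132.2, 99.6 and 196.3 CPM after sham, without overlap (log2 fold change -0.69, edgeR adjusted p = 0.233). Slc3a2, the heavy chain that carries SLC7A11 to the membrane, had a log2 fold change of -0.80 with overlap, since sham replicate 2, at 192.3 CPM, lay among the PRATA samples. Ggt7, of the gamma-glutamyltransferase family, was at 77.4 ± 14.7 CPM after PRATA and 52.0 ± 10.7 CPM after sham (SD, n = 3), with overlap and an edgeR adjusted p of 0.227.

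Among genes that use glutathione, 29 further ones were tested, with 3 lower (10.3%) and 1 higher (3.45%) at an unadjusted p under 0.05. The shares of all genes were 10.1% and 8.19%. The glutathione peroxidase of the endoplasmic reticulum, Gpx8, was at 7.87, 9.16 and 7.43 CPM after PRATA and at 16.4, 17.6 and 21.8 CPM after sham. Its groups lay well apart (log2 fold change -1.19 ± 0.21 SE, edgeR adjusted p = 0.156). The transferase Gsta1 was at 36.0, 61.3 and 35.9 CPM against 94.0, 106.9 and 192.6 CPM, a log2 fold change of -1.56, and Gstm1 had one of -0.74, both without overlap. Reads of these gene families may be split between near-identical copies, so their levels are uncertain. Of the 29 genes, 10 had a log2 fold change below 0, and the median was 0.10.

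The thioredoxin and peroxiredoxin group held 19 further genes, 2 of them lower (10.5%) and 0 higher at an unadjusted p under 0.05. Over all genes 10.1% were lower and 8.19% higher. The median of the 19 was 0.11, and 7 lay below 0. Prdx6, a peroxiredoxin that also reduces lipid peroxides, was at 32.3, 39.3 and 39.7 CPM after PRATA and at 62.9, 54.6 and 56.7 CPM after sham. Prdx1, the main cytosolic peroxiredoxin and uncertain for its pseudogenes, was at 74.9, 77.3 and 110.6 CPM against 135.4, 141.9 and 133.3 CPM. Both were separated between the groups, with log2 fold changes of -0.65 and -0.64 and edgeR adjusted p of 0.168 and 0.179. Sesn1, a sestrin, had one of 0.47 and higher levels in every PRATA sample (edgeR adjusted p = 0.279).

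In the haem and iron group, 3 of 9 further genes (33.3%) were lower at an unadjusted p under 0.05 and 0 were higher. Over all genes 10.1% were lower and 8.19% higher. The median of the 9 was 0.11, and 4 lay below 0. Groups that did not overlap were lower in 2 of the 9 and higher in 1. The 2 ferritin chains, which store the iron that haem oxygenase frees, both had lower levels in every PRATA sample. Ftl1, the light chain, was at 169.7, 183.3 and 218.5 CPM after PRATA and at 318.4, 306.2 and 391.3 CPM after sham (log2 fold change -0.83 ± 0.20 SE, edgeR adjusted p = 0.156). Fth1, the heavy chain, was at 789, 987 and 1379 CPM against 1726, 1455 and 1910 CPM (log2 fold change -0.69, edgeR adjusted p = 0.233). In both chains PRATA replicate 3 was the nearest to sham, as it was for Hmox1. Ferritin genes have many processed pseudogenes, which makes their counts uncertain. Slc48a1, a haem transporter, had a log2 fold change of -0.50 with groups that overlapped.

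Quinone and carbonyl detoxification held 21 further genes, with 3 lower (14.3%) and 0 higher at an unadjusted p under 0.05. Over all genes 10.1% were lower and 8.19% higher. The 3 lower genes also had a log2 fold change under -1. Groups that did not overlap were lower in 3 and higher in 3 (14.3% each), against 11.2% and 11.6% of all genes. Osgin1, an oxidative stress induced growth inhibitor, was at 2.32, 3.90 and 7.43 CPM after PRATA and at 16.2, 10.9 and 15.8 CPM after sham (log2 fold change -1.64 ± 0.41 SE, edgeR adjusted p = 0.159). The aldo-keto reductase Akr1b8 was at 10.2, 16.7 and 79.9 CPM against 88.4, 191.4 and 148.4 CPM, with PRATA replicate 3 close below sham replicate 1. Akr1b1, aldose reductase, was at 49.4, 43.4 and 50.1 CPM against 57.1, 104.6 and 128.8 CPM. Their log2 fold changes were -1.995 and -1.02, and reads of the related Akr1b genes may be split between copies.

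NADPH feeds both glutathione and thioredoxin reductase. Of 11 genes for its supply, 3 (27.3%) were lower at an unadjusted p under 0.05, all 3 without overlap, and the median was 0.00. Of all genes, 10.1% were lower at that threshold and 11.2% lower without overlap. Taldo1, transaldolase of the pentose phosphate pathway, was at 106, 124 and 162 CPM after PRATA and at 256, 236 and 346 CPM after sham (log2 fold change -1.10 ± 0.23 SE, edgeR adjusted p = 0.156). Shmt2, a mitochondrial enzyme of serine metabolism, had a log2 fold change of -0.75.

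Of 16 regulators of NRF2 besides Nfe2l2, 1 was lower and 1 higher at an unadjusted p under 0.05, with a median of 0.08. Each is 6.25% of the 16, against 10.1% lower and 8.19% higher of all genes. Keap1, the inhibitor, was at 39.1, 31.5 and 36.8 CPM after PRATA and at 25.6, 26.7 and 27.7 CPM after sham. It was higher in every PRATA sample, by 0.42 on the log2 scale (edgeR adjusted p = 0.233). Pgam5, a mitochondrial phosphatase that binds KEAP1, had a log2 fold change of -0.82 with overlapping groups. Sqstm1, the autophagy receptor p62 that competes with NRF2 for KEAP1, had one of -0.46 without overlap (edgeR adjusted p = 0.277).

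The 6 export genes, transporters of conjugates, had a median of 0.08, with Abcc4 at -0.51 and Abcc5 at 0.42, each without overlap, and Abcg2 at 1.23 with overlap (edgeR adjusted p = 0.244, 0.279 and 0.316). Of 8 enzymes against superoxide and peroxides, 1 (12.5%) was lower at an unadjusted p under 0.05, against 10.1% of all genes. It was Pon2, a paraoxonase, at -0.79. The superoxide dismutases Sod3 and Sod2 were at -0.67 and -0.42, with edgeR adjusted p of 0.316 and 0.328, and none of the 8 had separate groups.

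**Figure D3:**
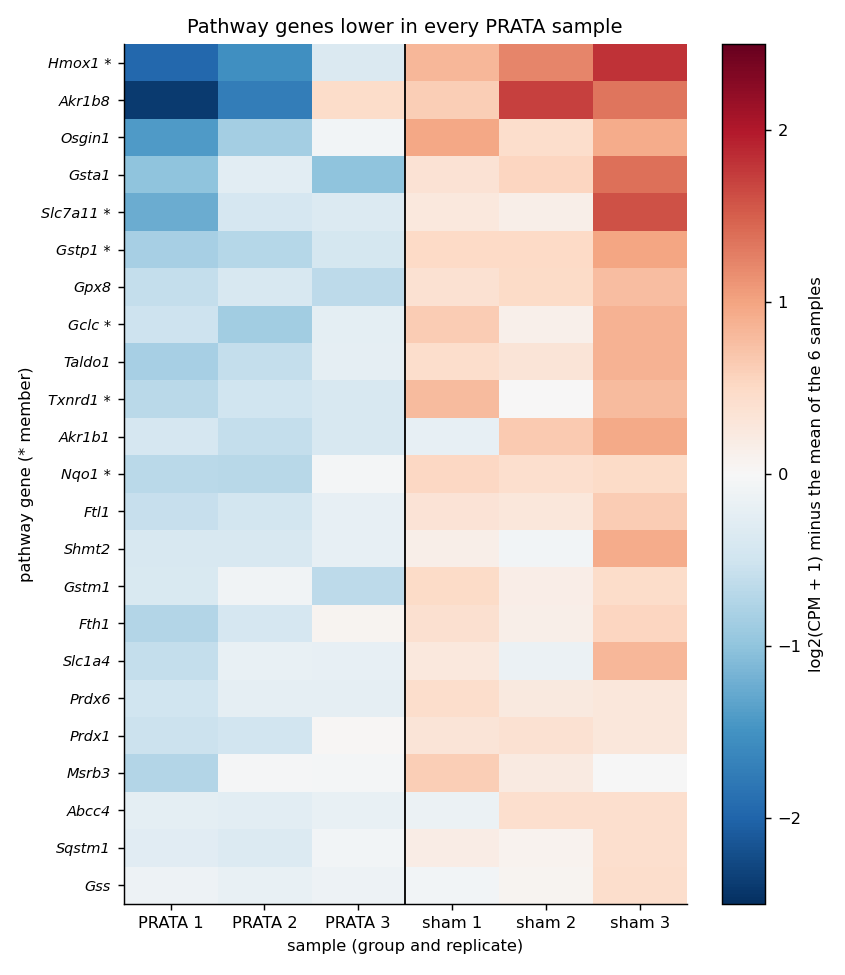
Log2(CPM + 1) of the 6 members and 17 of the 18 other pathway genes with lower, non-overlapping groups, centred on each gene's mean over the 6 samples, with blue for lower and red for higher. These genes were chosen for that pattern, so the split between groups is not a result. The columns show how samples differ within a group, with PRATA replicate 3 the highest PRATA sample for 11 of the 17 other genes shown.

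Bulk counts cannot tell fewer cells of a type from less RNA per cell, so cell type markers were read beside the members. Of 26 sensory neuron markers, whose median lay at 0.47 on the log2 scale, 7 (26.9%) were higher and 1 (3.85%) lower at an unadjusted p under 0.05. Of all genes, 8.19% were higher and 10.1% lower. The sums of these markers overlapped, at 17085 to 25032 CPM after PRATA and 12127 to 18310 CPM after sham. Rbfox3 was at 56.8 to 104.4 CPM after PRATA and 55.7 to 77.4 CPM after sham, and Tubb3 and Calca were higher in every PRATA sample, so neurons were present in all libraries. Schwann cell markers had a median of 0.69, with 4 of 15 higher (26.7%) and 1 lower (6.67%), and sums of 2127 to 2787 CPM and 1697 to 2250 CPM. Of their defining markers Prx had a log2 fold change of 1.39 without overlap, while Mbp had 0.69 with overlap.

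Most satellite glia markers lay below sham on average. Of the 14 tested, 13 had a log2 fold change below 0, with a median of -0.44. At an unadjusted p under 0.05, 1 of the 14 (7.14%) was lower, against 10.1% of all genes. The sums overlapped, at 3901 to 7327 CPM after PRATA and 5096 to 9608 CPM after sham. Apoe, the most abundant of the defining genes, was at 3319, 5229 and 2779 CPM after PRATA and at 6283, 3707 and 7473 CPM after sham. Fabp7 followed the same order of samples only in part, and both genes overlapped between the groups, with log2 fold changes of -0.62 for Apoe and -0.58 for Fabp7. The one marker of the list with lower, non-overlapping groups was Sox10, a transcription factor of glia that is named after its values were seen, at 59.9, 88.4 and 42.0 CPM after PRATA and 213.8, 109.4 and 267.4 CPM after sham (log2 fold change -1.63, edgeR adjusted p = 0.156). PRATA replicate 2 and sham replicate 2 crossed: the mean log2 level of the markers was 6.76 in PRATA replicate 2 and 6.22 in sham replicate 2.

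Fibroblast markers had a median of -0.12 with 14 of 17 below 0, and sums of 1546 to 4251 CPM after PRATA and 2448 to 3905 CPM after sham. PRATA replicate 3 held the most of Col1a1 in its group, at 819 CPM, against 105 and 280 CPM in PRATA replicates 1 and 2, and Dcn and Lum were highest there as well. Postn, a matrix protein also named after its values were seen, was the one fibroblast marker with lower, non-overlapping groups (log2 fold change -1.78, edgeR adjusted p = 0.156). It rested on few reads, 11, 19 and 36 counts after PRATA and 85, 30 and 100 counts after sham. Macrophages break down haem and can hold much Hmox1. Their markers were low, with sums of 103 to 375 CPM after PRATA and 109 to 257 CPM after sham and a median of 0.38. Cd68 was at 2.45 to 10.7 CPM, Mrc1 at 3.10 to 6.37 CPM and Cd163 at 0.472 to 2.81 CPM over the 6 samples, which overlapped between groups. Endothelial markers overlapped as well, at 131 to 254 CPM and 66.9 to 296 CPM with a median of 0.34, as did Cdh5 and Kdr. In each of the 6 lists no marker in the table was at 0 in all samples.

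With the mean log2 level of a marker list subtracted from the members in each sample, a step chosen after seeing the data, the count of lower, non-overlapping members among the 7 that did not choose the list went from 4 to 6 for sensory neuron markers, 5 for Schwann cell, 4 for macrophage, 2 for endothelial and 0 for both fibroblast and satellite glia markers. Of the 9 measured members, only Hmox1, a gene that chose the list, had separate groups against satellite glia markers, with a difference in log2 level of -2.11. Gstp1 was then at -0.86, Slc7a11 at -0.87, Gclc at -0.62, Txnrd1 at -0.59 and Nqo1 at -0.48, each with overlap. Nfe2l2 was at -0.05, while Gclm, at 0.25, and Gsr, at 0.27, lay above 0, also with overlap. Against fibroblast markers Hmox1, at -2.21, and Gstp1, at -0.96, had separate groups, while Gclm, at 0.14, and Gsr, at 0.16, again lay above 0. Subtraction also adds the spread of a marker list within a group, such as 4.64 to 5.86 for fibroblast markers after PRATA and 2.05 to 3.93 for endothelial markers after sham. That spread alone can make groups overlap, so these counts do not tell which cells held the RNA of the members. The part of satellite glia or fibroblasts in the levels of the members was not tested beyond these values.

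**Figure D4:**
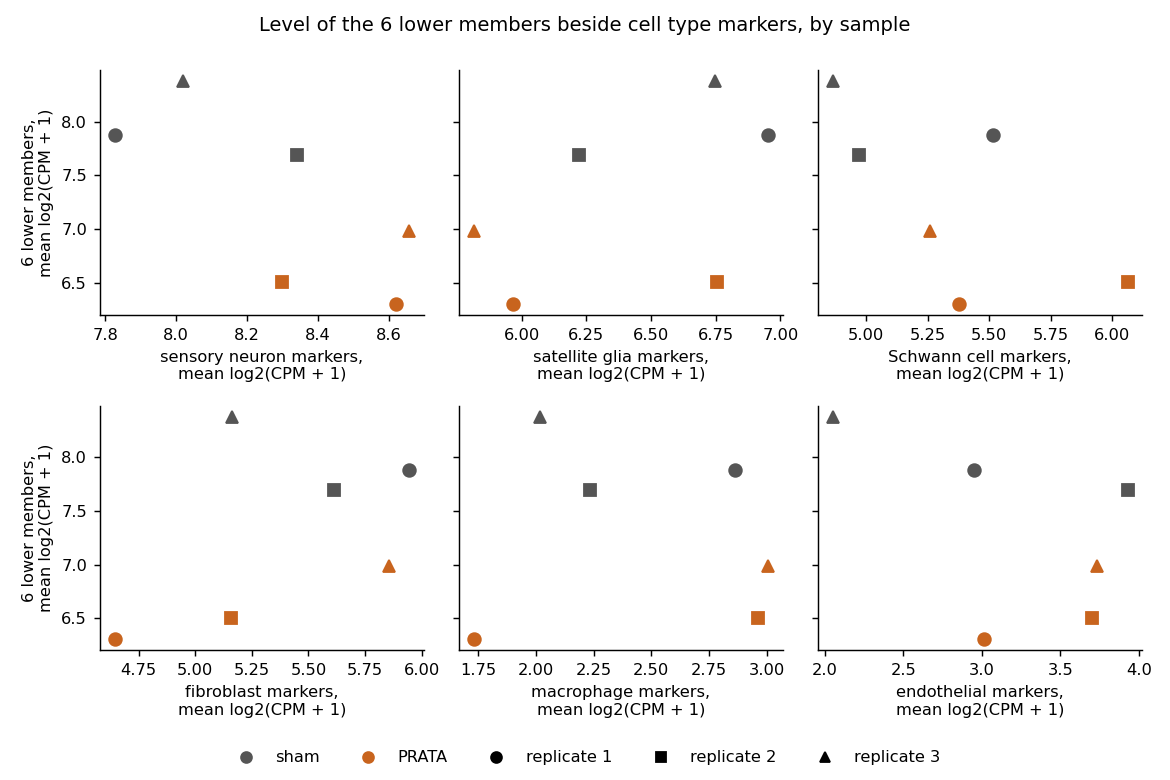
Mean log2(CPM + 1) of the 6 separated members (vertical axis) against that of each of 6 cell type marker lists (horizontal axes), with one point per sample, coloured by group and shaped by replicate number. The 6 members were chosen for groups that do not overlap, so their separation on the vertical axis, 6.31 to 6.98 after PRATA and 7.69 to 8.38 after sham, is no result. On the horizontal axes the groups overlap for each list, as where satellite glia markers stand at 6.76 in PRATA replicate 2 and 6.22 in sham replicate 2.

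Other stress responses were set beside the members for comparison. The list of ATF4 targets and endoplasmic reticulum stress genes, which answer unfolded protein and a lack of amino acids, had its median log2 fold change at -0.62. Of its 28 genes, 23 lay below 0, as did 48% of all genes. At an unadjusted p under 0.05 the list held 8 lower (28.6%) and 2 higher (7.14%), against 10.1% and 8.19% of all genes. Without the 4 genes it shares with the pathway list (Chac1, Mthfd2, Sesn2 and Shmt2) the median was -0.65. Psat1, of serine synthesis, was at 14.6, 17.3 and 15.02 CPM after PRATA and at 43.0, 17.8 and 44.4 CPM after sham, with sham replicate 2 just above the PRATA samples (log2 fold change -1.17, edgeR adjusted p = 0.171). Creld2, a chaperone of the endoplasmic reticulum, had one of -2.46, with 156.7 CPM in sham replicate 3 against 29.7 and 15.6 CPM in the other sham samples. Atf3, a stress and injury transcription factor, had one of 1.43 with overlap (edgeR adjusted p = 0.182). In the heat shock list the median was 0.12, with 1 lower (4.55%) and 2 higher (9.09%) of 22, against the same 10.1% and 8.19% of all genes. These were Ptges3 at -0.40, Dnajb1 at 1.23 and Bag3 at 0.68. No list was tested as a set, and the difference between lists was not tested.

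The genes most like Hmox1 over the 6 samples, by the root mean square difference of log2(CPM + 1) centred on each gene's mean, were Tsku at 0.139, Il1rl1 at 0.246, Layn at 0.458, Ccn2 at 0.471 and Srm at 0.474, where the median over all genes was 1.45. Tsku, a secreted proteoglycan, was at 1.94, 3.59 and 9.01 CPM after PRATA and at 26.9, 32.0 and 46.5 CPM after sham. Ccn2, a matrix protein of connective tissue growth, was at 93.1, 81.6 and 228.3 CPM against 530.8, 325.7 and 632.4 CPM. The 5 genes were chosen for their likeness to Hmox1, so a shared order of groups or samples is no further result. For Gstp1 the nearest were Pa2g4 at 0.0986, Samd5 at 0.106, Atad3a at 0.125, Taldo1 at 0.131 and Peg12 at 0.134, where the median was 0.769. Taldo1 was the only gene of the pathway list among these 10. A gene near the floor, such as Peg12 at 0.0797 to 3.12 CPM, is placed with less certainty.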

How the data were processed

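RNA of isolated L1-L2 DRG neurons was sequenced in 3 PRATA and 3 sham samples from 6 ng of RNA with a stranded total RNA kit that cleaves ribosomal fragments. The deposited file holds raw counts of reads per gene, made by the authors without normalization. The methods name HISAT2, StringTie and Cuffdiff, and the submitters' processing notes name STAR 2.7.3a, RSEM and DESeq2. Which tool made the counts, the genome build, the annotation and the strand setting are not given in the sources used here, so reads of overlapping or antisense genes cannot be told apart.

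Counts were filtered with filterByExpr (minimum count 10, minimum total 15), scaled by TMM and compared with edgeR 4.0.16's quasi-likelihood test in R 4.3.3, with Benjamini-Hochberg adjustment over the 14919 genes kept, two-sided, in place of Cuffdiff on FPKM. Intervals use the moderated degrees of freedom. Single values were also compared by an exact permutation test. Alternatives used DESeq2 1.42.0 and limma 3.58.1 (voom, and the trend method on log2(CPM + 1)). Scripts were tested on simulated data. Motifs were searched with Python 3.11.15, and figures were drawn with matplotlib 3.10.9.

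The members, gene lists and the exclusion of PRATA replicate 3 and sham replicate 1 were chosen with earlier results of these data known. Named genes were the members, other pathway genes that passed both the unadjusted p (0.05) and the log2 fold change (1 in size), up to 3 genes per role or comparison list with the smallest p, the 5 genes most like Hmox1 and Gstp1, and defining markers. Subtraction of marker means was added after seeing the data. A few genes covered by the naming rule are not reported here.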

Additional observations from a re-analysis of the deposited data

How the results depend on the processing

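Subtraction of marker means aside, no member changed direction under 16 alternatives (2 other scalings, 2 other filters, DESeq2, limma-trend, voom, the replicate block, each sample left out, 4 samples, protein-coding genes alone). The log2 fold change ranged from -3.29 to -2.15 for Hmox1, -1.58 to -1.17 for Gstp1, -1.17 to -0.81 for Nqo1, -1.29 to -0.93 for Gclc, -1.31 to -0.96 for Txnrd1, -1.88 to -0.83 for Slc7a11, -0.44 to -0.02 for Gclm, -0.49 to -0.04 for Gsr and -0.74 to -0.25 for Nfe2l2. Of the 7 tested members, 4 to 5 had an unadjusted p under 0.05, and their median, -0.92, was between -1.16 (without PRATA replicate 3) and -0.81 (without PRATA replicate 2) with 1 sample left out. Over all genes, 657 passed an unadjusted p under 0.05 with a log2 fold change over 1 in size, against 1379 with no filter, 337 by limma-trend, 1002 by voom, 994 in the 4 samples without PRATA replicate 3 and sham replicate 1, and 485 to 1034 (without sham replicate 2) with 1 sample left out. The median of all genes moved to -0.17 with no filter. At an adjusted p under 0.05 the fit without sham replicate 2 called 559 genes lower and 162 higher, and the 4 samples 4 lower and 9 higher. Of the pathway list without the members, 24 genes had an unadjusted p under 0.05, against 15 with the replicate block and 11 (without PRATA replicate 1, and without sham replicate 3) to 38 (without sham replicate 2) with 1 sample left out. Its median, 0.0427, was -0.0459 in the 4 samples, and with 1 sample left out it was between -0.0411 (without sham replicate 1) and 0.0493 (without sham replicate 3), with -0.029 without PRATA replicate 1. The causes were not tested. The replicate block left 4 members at an unadjusted p under 0.05 and a median of -0.95, and 519 of all genes past both thresholds. Same-numbered samples deviated with correlations of -0.39, -0.10 and -0.36, and none correlated best with its own number, so they share only a number. The members had 192 counts or more in every sample, and whether depth or the spread between libraries limits their calls was not tested.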

Other observations

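Within the PRATA group, replicate 3 held the highest level for 8 of 9 members (88.9%), all but Nfe2l2, against 5594 of 14919 genes tested (37.5%), 45 of 129 other pathway genes (34.9%) and 12 of the 18 among these with lower, non-overlapping groups (66.7%). PRATA replicate 3 is also a library with a high share of Rn7sl1 (5.4% of counts) and the highest sum of fibroblast markers in its group (4251 CPM), and its satellite glia sum, 3901 CPM, was the lowest of the 6 samples. Members share a library, so these counts are a description of that library.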
